A study of Mus musculus with 2 samples.

Results

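The spots described here are called immature cartilage of a healing fracture. They were picked out as the positions richest in the RNA of the 2 main cartilage matrix proteins. Of 6380 tissue spots on 2 Visium sections, the 5920 with at least 1000 unique molecular identifiers (UMIs) were kept, the 296 with the most *Col10a1*, the collagen of enlarged (hypertrophic) chondrocytes, were set aside, and the 400 of the rest with the highest summed *Col2a1* and *Acan* were taken. Levels are CPM, the UMIs of a gene summed over a group of spots and scaled to 1000000 UMIs of that group. The lowest sum inside the group was 47765.6 CPM and the highest outside 47704.8 CPM, and for *Col10a1* the last spot set aside had 1062.8 CPM and the first kept 1059.3 CPM. *Acan*, the large proteoglycan aggrecan, made up a median of 2.88% of the sum (0 to 9.74%), and 397 of the 400 spots would have been chosen by *Col2a1* alone. *Col2a1*, *Acan* and *Col10a1* therefore describe how the spots were chosen and are not findings.

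Both calluses came from 8-week-old female littermates whose distal tibia was fractured, pinned and collected after 10 days. The control mouse was *Postn*-cre-;*Nf1*+/fl, with 1 floxed and 1 intact allele of *Nf1* and no Cre. The Nf1Postn mouse was *Postn*-cre;*Nf1* flox/-, in which Cre driven by the periostin promoter removes the remaining *Nf1* allele in periosteal cells and their descendants, while cells that never express periostin keep it on a background with 1 null allele. The tissues were fixed in formalin and decalcified in EDTA. By the study's description both calluses lay in 1 block and 2 sections of it were analysed, so each genotype is taken here as 1 mouse, although the labels number the sections as biological replicates. The sections are called section 1 and section 2, their values are given side by side, and no test between groups was possible. Intervals are exact 95% intervals that cover counting error only. In Visium for fixed tissue, probe pairs report each gene at grid positions 100 μm apart, so the RNA of 1 spot may come from more than 1 kind of cell.

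Cartilage of the callus is a temporary tissue that is later replaced by bone. Its chondrocytes first divide and secrete collagen II and sulfated proteoglycans under the transcription factor *Sox9*, then stop dividing, express Indian hedgehog (*Ihh*), enlarge, switch to collagen X and mineralize their matrix. *Ihh* signals through its receptor *Ptch1* to neighboring cells, and because this cartilage has few vessels, its cells rely on glycolysis and on genes induced at low oxygen.

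The control callus held 374 of the 400 spots, 208 in section 1 and 166 in section 2, and the Nf1Postn callus held 26, all in section 2. As a share of spots with at least 1000 UMIs, this was 12.6% and 9.79% in the control sections, 11.2% (10.1 to 12.3%) over both. In the Nf1Postn callus it was 26 of 1443 spots, or 1.80%, in section 2 and 0 of 1126 in section 1, which allows a share of up to 0.266% by the limit of 3 spots, and 1.01% (0.662 to 1.48%) over both. In section 1 of that callus 33 spots under 1000 UMIs, outside this count, reached the lowest sum of the cartilage spots. *Col10a1*-rich spots were 14.0% and 3.60% of the control sections and 0.266% and 0.0693% of the Nf1Postn sections, so the control sections differed more from each other in hypertrophic than in immature cartilage. The shares follow from the 3 genes of the rule and are a description. Depth differed between the calluses: the control cartilage spots had a median of 9547.25 UMIs (1596 to 29144) in section 1 and 6608.75 (1515 to 24249.5) in section 2, and the Nf1Postn cartilage spots 5702 (2444.5 to 9780). In all, 2285408, 1270066.5 and 145808.5 UMIs stood behind these groups, so that 1 UMI in the Nf1Postn group equals 6.86 CPM. Of the barcodes, 93 were cartilage spots in both sections, because the same grid barcodes recur on every capture area.

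The spots formed coherent tissue, although the rule used no position. Of the grid neighbors of control cartilage spots, 71.1% were cartilage spots themselves (68.5% in section 1 and 74.3% in section 2), against 10.8% of all control spots. The corresponding values in the Nf1Postn callus were 70.5% and 0.897%. In the control, 137 spots had cartilage on all 6 sides and 12 had none. Joined spots made 27 control patches, of which 6 had at least 10 spots and held 341 spots. A main patch of 154 spots in section 1 and 120 in section 2 ran across the middle of the callus, and a side patch, the next in size, of 21 and 19 spots lay in the lower left of it. All 26 Nf1Postn spots made 1 patch, whose nearest control spot was 5 grid steps away and whose nearest *Col10a1*-rich spot was 8 steps away. *Col10a1*-rich spots were 13.6% of the neighbors of control cartilage spots (19.4% and 6.34%) and 0 of the 156 neighbors of Nf1Postn cartilage spots.

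**Figure D1:**
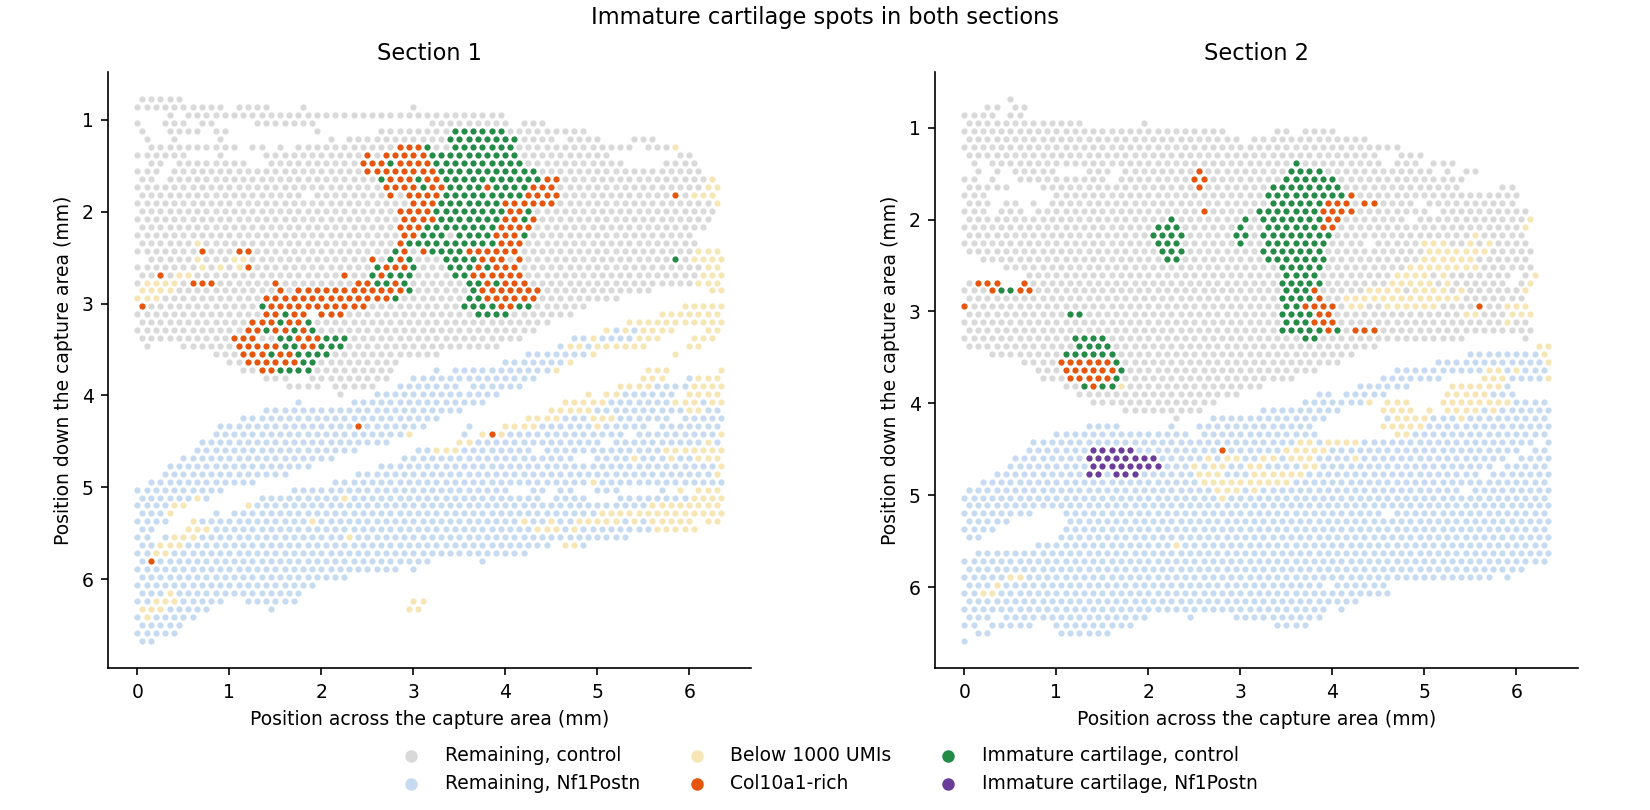
Each point is a spot at its position in mm on the capture area, colored by class, with section 1 on the left and section 2 on the right. The 154-spot and 120-spot control patches stand in the upper middle with *Col10a1*-rich spots along their edges, and the 26-spot Nf1Postn patch lies alone in section 2.

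The label was checked on markers that the rule did not use. *Ucma* (ENSMUSG00000026668, chromosome 2, 4980933 to 4990560 in mm39), a secreted protein of young chondrocytes, was at 316 and 224 CPM in control cartilage of sections 1 and 2. In the remaining control spots *Ucma* was at 17.1 and 15.0 CPM, a ratio of 17.7-fold (log2 4.14, 3.96 to 4.33). *Cnmd* (ENSMUSG00000022025, chromosome 14, 79875130 to 79899611), which encodes chondromodulin, an inhibitor of vessel growth, was at 1142 and 957 CPM against 84.4 and 70.8 CPM, a ratio of 13.9-fold (log2 3.80, 3.71 to 3.88). Both markers fit the name in the control. At least 1 UMI of *Ucma* was found in 146 of 208 spots (70.2%, 63.5 to 76.3%) of section 1 and 79 of 166 (47.6%, 39.8 to 55.5%) of section 2, against 19 of 400 (4.75%) of the remaining control spots richest in the muscle genes *Ckm* and *Acta1*, at a median of 4343 UMIs. Thinned to 1000 UMIs a spot, the shares were 26.9%, 13.3% and 0.5%. In Nf1Postn cartilage the markers parted: *Cnmd* was at 1228 CPM, whereas *Ucma* was at 20.6 CPM from 3 UMIs in 3 of 26 spots. Thinned in the same way, *Ucma* was found in 6.16% of control *Col10a1*-rich spots and in 7.69% of Nf1Postn cartilage spots. At matched depth this share was thus nearer to that of control section 2. *Ucma* there was near its level in the remaining control spots, but above that of the remaining Nf1Postn spots of section 2 (3.13 CPM, log2 2.72, 0.31 to 4.49). In the same comparison *Cnmd* was higher by 5.75, *Matn3* by 5.36, *Hapln1* by 5.29 and *Scrg1* by 4.51, so these markers fit the name cartilage in that callus too, with *Ucma* far below its pooled level in control cartilage. The word immature is less well borne out there. *Ucma* was below the 56.0 CPM of control *Col10a1*-rich spots, and *Sox9*, at 583 CPM, was near their 707 and 599 CPM. The 14 hypertrophic genes, *Col10a1* included, summed to 7469 CPM. Control cartilage had 4864 and 4923 CPM and control *Col10a1*-rich spots 12001 and 12735 CPM.

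What the control spots shared beyond the rule was a cartilage matrix. Against the remaining control spots, 178 of 11204 genes tested (1.59%) were at least 2-fold higher in each section and 1231 (11%) at least 2-fold lower, counting the genes of the rule. A gene was tested with at least 50 UMIs over both groups in each section, and a gene past 2-fold in the same direction in each section is termed called below. The median log2 ratio of all genes tested was -0.41, and *Col2a1* alone was at 138478 CPM in the cartilage spots. With trimmed mean (TMM) scaling, which centers the ratios, the split was 298 higher and 532 lower. In bulk sums of this kind, fewer cells of a type and less RNA per cell cannot be told apart.

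Genes for matrix proteins were among those with the largest ratios. The 10 largest ratios were those of *Col2a1* of the rule and of *Ucma*, *Clec3a* (log2 4.10), *Meltf* (3.96), *Scrg1* (3.89), *Matn3* (3.84), *Cnmd*, *Hapln1* (3.73), *Col9a3* (3.59) and *Snorc* (3.58). *Matn3*, a matrilin that links collagen fibrils and aggrecan, was at 2360 and 2425 CPM in cartilage and 178 and 154 CPM elsewhere in the control. *Hapln1*, the link protein that ties aggrecan to hyaluronan, was at 1317 and 1292 CPM against 110 and 87.0 CPM. Of the cartilage collagens, 5 of 6 tested were called higher, against 1.59% of all genes, with a list median of 2.64. Among them were all 3 chains of collagen IX (*Col9a1* 3.22, *Col9a2* 3.11 and *Col9a3*). The exception was *Col11a1*, which fibrous tissue and bone also make, at 1108 and 980 CPM against 847 and 753 CPM (log2 0.41). Of the proteoglycans and small cartilage proteins, 14 of 20 were called higher and 1 lower, *Cilp*, with a median of 2.71. *Comp*, a cartilage and tendon glycoprotein, was the most abundant of the higher ones, at 17381 and 17908 CPM.

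The machinery that sulfates and folds this matrix was less sharply confined to cartilage. Over all 11204 genes of this comparison, 1.59% were called higher and the median was -0.41. Of the genes for sulfation and glycosaminoglycan synthesis, 6 of 15 were called higher with a median of 0.83. They include *Papss2*, which makes the sulfate donor, at 125 and 109 CPM against 21.2 and 20.6 CPM (log2 2.52), *Slc26a2*, the sulfate transporter, at 108 and 92.1 CPM against 20.7 and 23.0 CPM (2.22), and *Xylt1*, which starts the sugar chains (2.20). For collagen folding and secretion 3 of 18 were called higher (median 0.59), *P4ha2*, *Plod2* and *P3h2*, all collagen hydroxylases. Among 21 chondrocyte transcription factors, 6 were called higher and 1 lower. *Sox9* was at 1671 and 1546 CPM against 284 and 248 CPM (log2 2.61), and its partner *Sox6* at 123 and 105 CPM against 33.0 and 24.8 CPM (2.01). *Foxa3* (3.58), *Nkx3-2* (2.83), *Sox8* (2.26) and *Trps1* (1.15) were the others. *Runx2* (-0.40) and *Sp7* (-0.18), factors of hypertrophy and bone, were not called.

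Signals and receptors of growth cartilage went both ways in the same comparison. *Fgfr3*, a brake on chondrocyte growth (log2 2.25), *Pth1r*, the receptor for PTHrP (1.16), *Ihh* (1.79), *Ptch1* (1.51) and the Wnt antagonists *Frzb* (2.43) and *Sfrp5* (2.38) were the 6 of 41 zone and signal genes called higher. The 5 called lower, against 11% of all genes, were *Pthlh*, which encodes PTHrP itself (-2.01), *Apoe* (-1.84), *Gas1* (-1.79), *Npr3* (-1.37) and *Gdf10* (-1.23), and the list had 26 ratios below 0 and a median of -0.32, where 9035 of the 11204 genes in all lay below 0. Of the glycolysis and hypoxia genes 10 of 25 were called higher, against 1.59% of all genes, and 0 lower, with a median of 1.03. They were led by *Car9* (3.24), a carbonic anhydrase, *Bnip3* (2.21), a mitophagy receptor, and *Ankrd37* (1.83). Of the Ras, MAPK and *Nf1* list 0 of 22 were called higher and 5 lower: *Spry2* (-1.80), *Spry4* (-1.82), *Dusp5* (-1.27), *Dusp6* (-1.31) and *Rasa2* (-1.14), of which the first 4 encode feedback inhibitors of the pathway. *Nf1* itself did not differ by 2-fold (0.02).

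Markers of several other tissues were called lower in control cartilage, against 11% of all genes. The calls were 9 of 10 for macrophage, 7 of 12 for endothelial, 6 of 9 for fibrous, 5 of 12 for muscle and 5 of 11 for osteoblast genes, where *Smpd3*, which chondrocytes also express, was called higher. Fewer were called for osteoclast (3 of 9), adipocyte (2 of 5), neutrophil (1 of 6), tendon (1 of 7) and erythroid genes (0 of 3), and of 7 Schwann cell genes 1 was called lower and 1 higher, *S100b* (1.39), which chondrocytes also express. Muscle RNA differed between the sections. The 12 muscle genes, led by *Myh4*, summed to 3996 CPM in cartilage of section 1 and 12817 CPM in section 2, against 18215 and 26116 CPM in the remaining control spots, with 0 of the 12 at 0 UMIs in either section. The 10 osteoclast genes, led by *Ctsk*, summed to 2143 and 4147 CPM in cartilage of sections 1 and 2. The part of these tissues in the other results was not tested. The 10 lowest genes by ratio, from *Fcna* (-4.58) to *Amy1* (-3.09), each had between 1 and 5 UMIs in cartilage, and the interval of *Fcna* ran from -9.89 to -2.08.

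**Figure D2:**
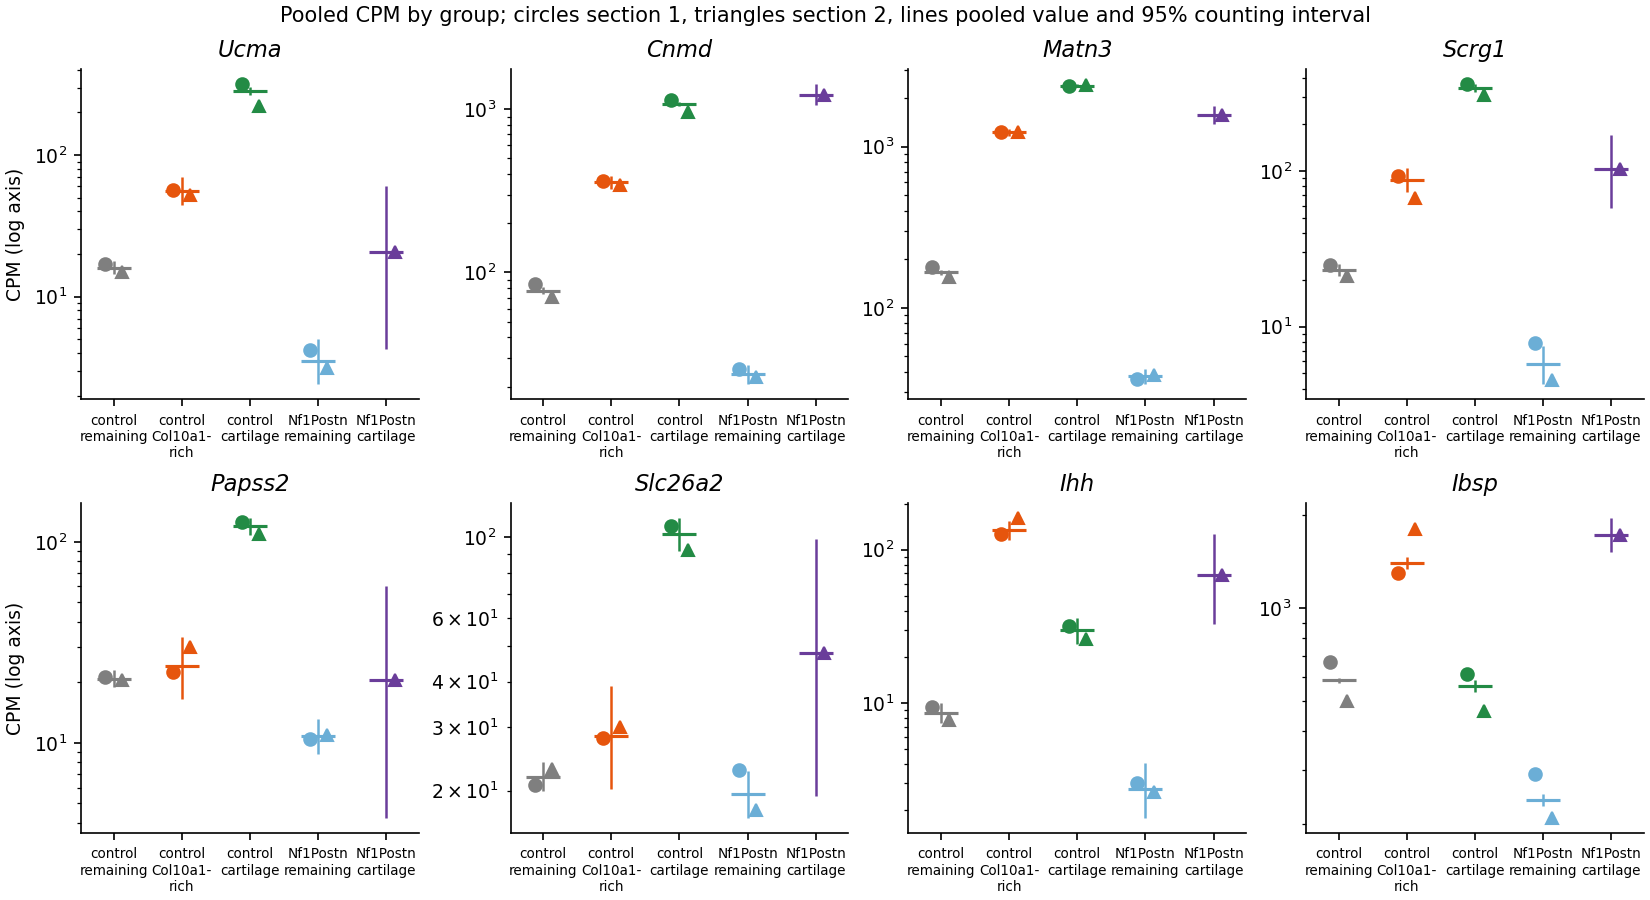
Pooled CPM on a log axis for 8 genes in 5 groups of spots, with circles for section 1, triangles for section 2, and bars and lines for the pooled value and its 95% counting interval. *Ucma* is at 316 and 224 CPM in control cartilage and 56.9 and 52.5 CPM in *Col10a1*-rich spots, *Ihh* is ordered the other way, and *Ucma* in Nf1Postn cartilage is at 20.6 CPM.

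Control immature cartilage was next set against the *Col10a1*-rich spots, and the comparison asks what else separates young from hypertrophic cartilage. Of 4837 genes tested, 55 (1.14%) were called higher in control immature cartilage and 58 (1.2%) lower, with a median log2 ratio of -0.11. With TMM scaling the split was 88 higher and 38 lower. The 10 largest ratios upward were *Ucma* (2.34), *Papss2* (2.32), *Gfpt2* (2.23), *C1qtnf3* (2.13), *Car9* (2.10), *Slc16a3* (2.02), *Snx22* (2.02), *Scrg1* (1.96), *Ngef* (1.87) and *Slc26a2* (1.85). Several of these serve the synthesis of sulfated sugar chains. *Gfpt2* makes the precursor of amino sugars, *Papss2* and *Slc26a2* supply sulfate, and *Xylt1* (1.69) and *Csgalnact1* (1.02), which start and extend the chains, were called as well, which gives 4 of 14 genes of the sulfation list called higher and 0 lower, with 12 above 0 and a median of 0.53. *Papss2* was at 22.6 and 30.0 CPM in *Col10a1*-rich spots, close to its level in the remaining control spots.

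Of the cartilage collagens 0 of 6 were called, although their ratios were all above 0, with a median of 0.59 and *Col9a3* the largest at 1.04. Of the proteoglycans 4 of 19 were called, *Ucma*, *Scrg1*, *Cnmd* (1.59) and *Fmod* (1.36), and *Snorc* did not differ (0.02, -0.09 to 0.13). *Sox9* was 2.37-fold higher (707 and 599 CPM in *Col10a1*-rich spots), while *Sox6* (0.20) and the link protein *Hapln1* (0.46) were not called.

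Downward, the list was led, besides *Col10a1* itself, by *Aldh1a3* (-2.45), which makes retinoic acid, *Irx5* (-2.18), *Ihh* (-2.17), *Mmp9* (-2.07), *Tcf7l2* (-2.02), *Plk2* (-2.01), *Wnk4* (-1.95), *Cadm1* (-1.93) and *Lrp4* (-1.93). *Ihh* (ENSMUSG00000006538, chromosome 1, 74984474 to 74990832) was at 31.9 and 26.0 CPM in immature cartilage and 127 and 161 CPM in *Col10a1*-rich spots. Of 12 hypertrophic genes 3 were called lower: *Spp1* (-1.36) and *Ibsp* (-1.32), matrix proteins of mineralizing tissue, and *Phospho1* (-1.22), a phosphatase of mineralization. Of 9 osteoblast genes 5 were called lower, among them *Dmp1* (-1.81), *Ifitm5* (-1.55), *Sost* (-1.39) and *Ibsp*, which both lists hold. Of all 4837 genes tested in this comparison, 58 (1.2%) were called lower and 2934 lay below 0. *Mmp9*, a protease of osteoclasts and hypertrophic zones, moved with osteoclast genes, which summed to 7677 and 5609 CPM in *Col10a1*-rich spots, and the part of osteoclasts in its ratio was not tested. Muscle genes summed to 8448 and 13110 CPM there.

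Within the control cartilage, levels were read against the distance to *Col10a1*-rich spots, an axis that rests on the *Col10a1* limit of the rule. The 206 spots that lay 1 or 2 grid steps from a *Col10a1*-rich spot were set against the 111 that lay 4 or more steps away, with 57 spots at 3 steps between them. Of 3403 genes tested, 13 (0.382%) were called higher near the *Col10a1*-rich tissue and 5 (0.147%) lower, with a median log2 ratio of -0.14. *Col10a1* itself, which the rule used, was among the 13, at 327 CPM near and 89.2 CPM far (1.87). *Ihh* stood at 13.3 CPM at 4 or more steps, 19.6 at 3, 27.9 at 2 and 58.6 at 1 step, and at 134 CPM in the *Col10a1*-rich spots. The ratio of near to far was 1.75 on the log2 scale (0.96 to 2.62), with 1.51 in section 1 and 2.11 in section 2. *Ihh* had too few UMIs in section 2 for a call. Along the steps its levels were ordered like those of *Col10a1*, which stood at 89.2, 113, 160 and 465 CPM.

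Targets of hedgehog signaling did not all follow *Ihh*. *Ptch1*, the receptor and a target, was at 106, 243, 329 and 339 CPM from far to near and at 218 CPM in *Col10a1*-rich spots (log2 1.66, 1.38 to 1.95). *Gli1*, a transcription factor of the pathway, was at 57.5, 116, 128 and 114 CPM, then 84.4 CPM (1.07, 0.67 to 1.48), although its ratio reversed to -0.35 when every spot was thinned to 1000 UMIs. *Hhip*, another target, was at 3.33, 16.3, 11.4 and 36.6 CPM and highest in the *Col10a1*-rich spots at 86.6 CPM, but had too few UMIs to be tested. *Sfrp5* (chromosome 19, 42186410 to 42190692), the Wnt antagonist, had the largest ratio of the genes called, 2.84 (2.07 to 3.71). It was at 12.5, 50.7, 108 and 74.3 CPM and at 20.4 CPM in the *Col10a1*-rich spots, so that its highest level lay between the zones.

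The gene lists were mixed along this axis. Of the cartilage collagens 4 of 6 lay above 0, of the proteoglycans 10 of 16, of the sulfation genes 3 of 12 and of the collagen folding genes 5 of 17, against 1123 of 3403 genes in all, and *Snorc* was the 1 gene of these lists that was called. *Snorc*, a small chondroitin sulfate proteoglycan of cartilage, went from 376 CPM far to 883 CPM near (log2 1.23), *Pltp*, a phospholipid transfer protein, from 133 to 419 CPM (1.66), and *Sox4* from 85.0 to 209 CPM (1.30). *Chad*, chondroadherin, a cell-binding matrix protein, went from 339 CPM far to 1015 CPM at 1 step. Its ratio of near, at 1 or 2 steps, to far was 1.27, with 1.00 in section 1, just under the bound for a call. *Ibsp* was higher near in section 1 (1.96) but under 2-fold in section 2 (0.80). Of 11 hypertrophic genes 10 had ratios above 0 (median 0.56), and 0 were called. In the other direction, *Sfrp2*, a Wnt modulator, went from 1016 CPM far to 340 CPM near (-1.58), *Birc5*, survivin, of dividing cells, from 123 to 48.2 CPM (-1.35) and *Tnmd*, tenomodulin of tendon, from 70.0 to 29.8 CPM (-1.23). The pooled ratios of 4 of 4 tendon genes (median -0.82), 6 of 6 fibrous genes (-0.52) and 10 of 10 muscle genes (-0.56) lay below 0, and their part in these values was not tested. Pooling mixes the sections unequally. Section 1 gave 1258147.5 of 1743766 UMIs near and 653033.5 of 1199748.5 UMIs far. The muscle genes *Myh4* and *Ckm* had opposite signs in the 2 sections, as given below, so the pooled muscle counts do not show a shared gradient. Of 9 cell cycle genes 7 lay below 0, against 2280 of 3403 genes in all, with a median of -0.92, but only *Birc5* was called, since *Mki67* (-1.14) and *Cdk1* (-1.16) were under 2-fold in section 2, at -0.27 and -0.53.

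*Ucma* did not follow the same course in both sections. In section 1 it was at 484, 347, 248 and 197 CPM from far to near (log2 -1.14), whereas in section 2 it was at 216, 282, 276 and 142 CPM (-0.08), and the pooled ratio was -0.75 (-0.95 to -0.54). Depth ran differently too, with medians of 19284.5 UMIs far and 8453.5 near in section 1 and 5549.5 and 6872.5 in section 2. *Mmp9* (1.84 and -0.86), *Acp5* of osteoclasts (1.54 and -1.48), *Myh4* (1.19 and -0.87) and *Ckm* (1.15 and -0.83) of muscle had opposite signs in sections 1 and 2, so the far spots of section 2 held more RNA of these genes than the near ones. Their part in the gradient was not tested. Within the main patches alone, the ratios were 1.48 for *Ihh* and -0.64 for *Ucma*.

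**Figure D3:**
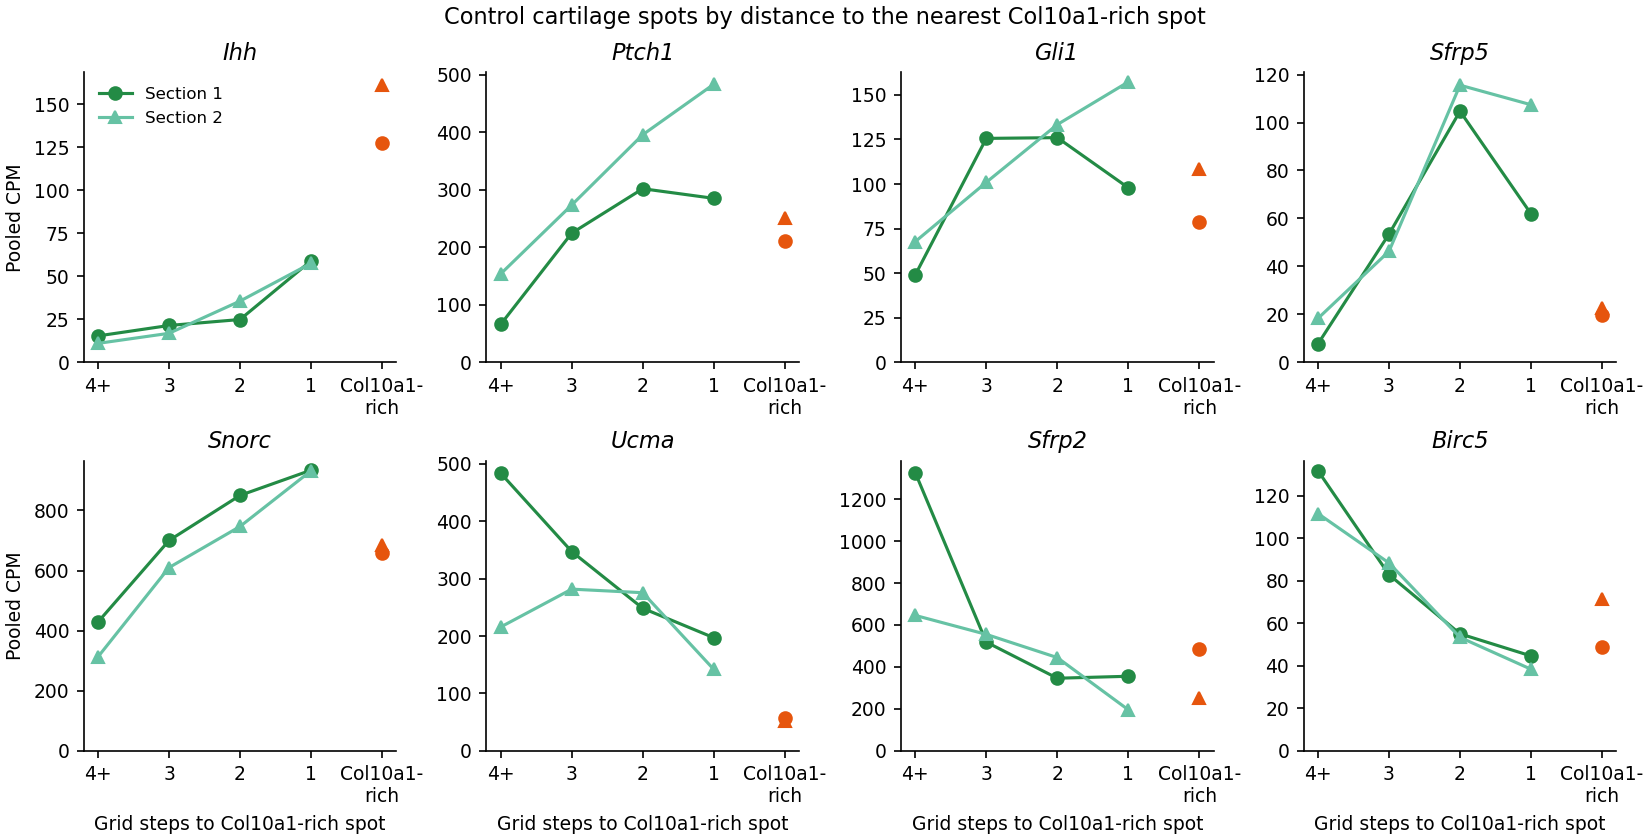
Pooled CPM (from 0) of 8 genes in control cartilage spots, ordered by grid steps to the nearest *Col10a1*-rich spot, with circles for section 1 and triangles for section 2 and the *Col10a1*-rich spots themselves in orange. *Ihh* is highest in the *Col10a1*-rich spots, at 134 CPM over both sections, *Ptch1*, *Gli1* and *Sfrp5* are highest before them, and *Sfrp2* and *Birc5* are highest in the far spots.

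The control patches were not alike. Set against the main patches, the side patches had 72 genes called higher (2.05% of 3506 tested) and 84 lower (2.4%), with a median log2 ratio of 0.16. The minimum of UMIs was set over both groups. The main patches held 1917850.5 and 975521.5 UMIs against 182047.5 and 123251.5 in the side patches. Genes with few UMIs in the side patches thus passed it through the main patches, and counts of listed genes are a description. The patches were split by size after values had been seen. The third patches, of 11 spots in section 1 and 16 in section 2, were not compared. That of section 2 held 124938 UMIs and lay at a median of 6 steps from *Col10a1*-rich spots. The side patches lay at a median of 1 step from *Col10a1*-rich spots and the main patches at 2 and 3 steps, and all came from the 1 control mouse. In the side patches of sections 1 and 2 *Sox9* was at 714 and 560 CPM against 1838 and 1771 CPM in the main patches (log2 -1.48, -1.69 to -1.27). *Ucma* was at 132 and 40.6 CPM against 360 and 278 CPM (-1.81), *Scrg1* at 104 and 73.0 CPM against 411 and 370 CPM (-2.12), and *Matn3* at 1280 and 1282 CPM against 2602 and 2828 CPM (-1.06). *Cnmd* did not differ by 2-fold (-0.13, -0.30 to 0.04), and the cartilage collagens had 0 of 6 called.

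Among the genes called higher in the side patches were transcription factors and receptors. *Sox4*, a factor of progenitors, was at 461 and 479 CPM against 101 and 101 CPM (log2 2.21), *Pdgfra*, a receptor of mesenchymal cells, at 132 and 203 CPM against 56.8 and 68.7 CPM (1.40), and *Pltp* at 643 and 836 CPM against 225 and 221 CPM (1.69). *Runx2* (1.33), *Mef2c* (1.19), *Gli1* (1.36), *Cdkn1c* (1.12), an inhibitor of division, and *Ifitm5* (1.70), an osteoblast membrane protein, were called as well. *Chad*, at 1038 and 1939 CPM against 520 and 515 CPM, had a ratio of 1.44 but was just under 2-fold in section 1. Of 5 macrophage genes all lay above 0 (median 1.06), and *C1qb* was called (1.54). Over all genes 2192 of 3506 lay above 0 (median 0.16) and 2.05% were called higher. The part of macrophages in the other ratios was not tested.

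The 26 Nf1Postn spots allow the genotype comparison that the design implies, at the scale of 1 patch of 1 mouse. *Nf1*, the deleted gene, was at 54.9 CPM from 8 UMIs in Nf1Postn cartilage against 84.4 and 80.3 CPM in control cartilage, a log2 ratio of -0.60 (-1.82 to 0.40). At this depth no difference in *Nf1* was resolved, since the interval holds both no change and a loss of more than 2-fold. The paper reports reduced *Nf1* in its cartilage, ossifying perichondrium and woven bone clusters of the Nf1Postn callus. Which exons the probes of *Nf1* cover is not given in the sources used here. In the remaining spots *Nf1* was at 67.9 and 49.6 CPM in the Nf1Postn callus and 85.7 and 77.9 CPM in the control.

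Set against the control cartilage of each section in turn, 77 of 4486 genes tested (1.72%) were at least 2-fold higher in Nf1Postn cartilage and 405 (9.03%) at least 2-fold lower, with a median log2 ratio of -0.09. The interval of the pooled ratio lay on 1 side of 0 for 76 of the higher and 245 of the lower genes, and 7 of the lower had 0 UMIs, so many of the lower calls rest on a few UMIs. With TMM scaling the split was 61 and 490, thinned to 1000 UMIs a spot it was 9 and 55, and with no minimum of UMIs it turned round to 1560 higher and 848 lower. The minimum was set over both groups, and the control group held far more UMIs, so genes with few UMIs in Nf1Postn cartilage passed it through the control group; counts of listed genes below are a description and stand beside 9.03% called lower and 2519 of 4486 below 0 in all. Cartilage collagens had 0 of 6 called (median -0.22): *Col9a1* was at 10479 CPM against 9390 and 6693 CPM, and *Col9a3* at 5295 CPM against 7718 and 5860 CPM. *Comp* was at 25945 CPM (log2 0.56), *Snorc* at 1132 CPM (0.75), *Hapln1* at 988 CPM (-0.41) and *Matn3* at 1577 CPM (-0.60), none of them called. *Acan*, which the rule used, was at 1728 CPM against 5228 and 4366 CPM (-1.51), while *Col2a1* was at 165868 CPM against 137278 and 140637 CPM (0.26).

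Among the 10 largest ratios upward, *Chad* (ENSMUSG00000039084, chromosome 11, 94455873 to 94459954) was at 2723 CPM against 570 and 635 CPM, 4.59-fold higher (log2 2.20, 2.04 to 2.35). Spot by spot it ran from 0 to 6606 CPM with a median of 2666 in Nf1Postn cartilage, against 0 to 4451 with a median of 501 and 0 to 4194 with a median of 457 in control cartilage, so that the ranges overlapped while the medians differed widely. *Tgfb2*, the growth factor TGF-β2 (ENSMUSG00000039239), was at 274 CPM from 40 UMIs against 62.6 and 47.2 CPM (2.26, 1.74 to 2.76). *Pltp* was at 1283 CPM against 294 and 291 CPM (2.13), *Axin2*, a feedback gene of Wnt signaling, at 103 CPM from 15 UMIs against 23.2 and 28.3 CPM (2.04), and *Cemip*, a hyaluronan-degrading protein, at 130 CPM from 19 UMIs against 30.2 and 32.3 CPM (2.07). *Mamdc2* (2.17) and *Insc* (1.89) completed the 10 largest, with *Ifitm5* and 2 globins given below, but *Mamdc2* turned to -0.060 when every spot was thinned to 1000 UMIs.

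Of 13 hypertrophic genes 3 were called higher and 1 lower (median 0.19). *Ibsp* was at 1735 CPM against 614 and 465 CPM (log2 1.63, 1.43 to 1.82), *Phospho1* at 1488 CPM against 557 and 648 CPM (1.34), and *Panx3*, a channel of maturing chondrocytes, at 405 CPM against 201 and 172 CPM (1.09). *Ifitm5* of osteoblasts was at 192 CPM from 28 UMIs against 46.4 and 70.9 CPM (1.80), and turned to -0.060 in the thinned spots. *Dmp1* (-1.36) and *Sost* (-1.48) of osteocytes were called lower, and *Ihh*, at 68.6 CPM from 10 UMIs against 31.9 and 26.0 CPM, was below the minimum for a test. The gene called lower in the hypertrophic list was *Vegfa*, the vessel growth factor, at 34.3 CPM from 5 UMIs against 163 and 146 CPM (-2.19, -3.82 to -0.96).

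Several genes on the lower side were named above for control immature against *Col10a1*-rich cartilage; both comparisons use the same control spots, and their values are given without reading the directions together. *Ucma* was at 20.6 CPM from 3 UMIs against 316 and 224 CPM (log2 -3.78, -6.06 to -2.23), *Scrg1* at 103 CPM from 15 UMIs against 362 and 308 CPM (-1.74), and *C1qtnf3* at 412 CPM from 60 UMIs against 3124 and 2498 CPM (-2.82, -3.21 to -2.45). *Sox9* was at 583 CPM from 85 UMIs against 1671 and 1546 CPM, 2.79-fold lower (-1.48, -1.81 to -1.17). All 14 sulfation genes tested lay below 0 (median -1.01) and 5 were called, among them *Papss2* at 20.6 CPM from 3 UMIs against 125 and 109 CPM (-2.54, -4.82 to -0.98). Of 17 collagen folding genes 6 were called lower (median -0.61), including the lysyl hydroxylase *Plod1* at 54.9 CPM from 8 UMIs against 259 and 206 CPM (-2.13). Of 10 cell cycle genes 6 were called lower (median -1.37), among them *Cdk1* (-2.09, -4.38 to -0.53), *Mcm5* (-2.09, -5.14 to -0.21) and *Mki67* (-1.70, -3.98 to -0.13), each from 2 or 3 UMIs. Among the largest ratios downward were those of *Ddah1* (-4.25) and *Nrn1* (-3.84) with 1 UMI each, of *Ucma*, and of *Map2k1* (-3.35), *Grb14* (-3.33), *Ckap5* (-3.29) and *B4galt7* (-3.18) with 1 UMI each, *Rtl3* (-3.22) with 3 and *Zim1* (-3.19) with 2.

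Among signals, *Sfrp2* was at 82.3 CPM from 12 UMIs against 657 and 501 CPM (log2 -2.87), and *Ltbp1*, which stores TGF-β in matrix, at 13.7 CPM from 2 UMIs against 72.6 and 59.8 CPM (-2.31, -5.36 to -0.44). *Sfrp5* had 0 UMIs against 202 in control cartilage, which makes it at least 2.76-fold lower, with 3 UMIs taken as the bound for the Nf1Postn group. *Ptch1* (0.29) and *Gli1* (-0.14) did not differ by 2-fold from all control cartilage, but against the side patches of the control *Gli1* stood at -1.34 (-2.32 to -0.47) and *Ptch1* at -0.62 (-1.15 to -0.11). Against the side patches of sections 1 and 2 taken singly, *Gli1* stood at -1.11 and -1.63, but *Ptch1* at -0.09 and -1.16. Of 11 Ras, MAPK and *Nf1* genes 1 was called, near the 9.03% of all genes: *Fos*, with 0 UMIs and at least 3.31-fold lower, and *Dusp6* was at 41.2 CPM from 6 UMIs against 39.4 and 40.2 CPM (0.05, -1.42 to 1.21).

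RNA of other tissues moved with this comparison. The globins *Hba-a2*, at 363 CPM from 53 UMIs against 33.7 and 58.3 CPM (log2 3.10), and *Hbb-bs*, at 610 CPM from 89 UMIs against 78.3 and 99.2 CPM (2.83), had the largest ratios of all, and near-identical gene copies make it uncertain which copy was counted. The 6 erythroid genes summed to 1015 CPM in Nf1Postn cartilage and 1574 and 1518 CPM in the remaining Nf1Postn spots, against 123 and 175 CPM in control cartilage, so that the whole Nf1Postn callus was higher. All 10 muscle genes tested lay above 0 (median 0.91) and 0 were called. The 12 muscle genes, led by *Myh4*, summed to 13799 CPM, close to the 12817 CPM of control cartilage in section 2 and above the 3996 CPM of section 1, with 0 of the 12 at 0. Osteoclast genes summed to 1042 CPM, with *Siglec15*, *Oscar*, *Calcr* and *Itgb3* at 0, and *Acp5* was called lower (-2.29). Macrophage genes summed to 446 CPM and endothelial genes to 658 CPM, within or near the control cartilage values of 330 and 473 CPM and of 664 and 789 CPM. The part of these tissues in the other ratios was not tested.

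The Nf1Postn patch was also set against the side patches of the control callus alone. *Sox9*, at 583 CPM in Nf1Postn cartilage, differed from the side patches by -0.16 on the log2 scale (-0.54 to 0.21). *Scrg1* differed from them by 0.17 (-0.84 to 1.12), *Papss2* by -0.52 (-3.04 to 1.48) and *Matn3* by 0.30 (0.06 to 0.54). This comparison and the one with all control cartilage share the control spots and the Nf1Postn spots, and the side patches held 182047.5 and 123251.5 UMIs in sections 1 and 2.

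Intervals against the side patches that excluded 0 were found, among other genes, for *Ibsp* (log2 2.46, 2.12 to 2.82; 253 and 406 CPM in the side patches), *Tgfb2* (1.48, 0.76 to 2.21; 121 and 64.9 CPM), *Chad* (0.96, 0.76 to 1.16) and the globin *Hba-a2* (2.71, 1.90 to 3.59) on the higher side. On the lower side they included *Sfrp2* (-2.64, -3.63 to -1.80), *Ucma* (-2.21, -4.57 to -0.52), *Gli1*, *Dkk3*, a secreted glycoprotein (-1.31, -2.22 to -0.50), *Igfbp5*, which binds insulin-like growth factors (-1.07, -1.43 to -0.72), *Ltbp1* (-2.52, -5.64 to -0.51) and the replication gene *Mcm5* (-2.18, -5.33 to -0.13). All 9 cell cycle genes tested lay below the side patches (median -1.44), against 2333 of 3506 genes in all (median -0.24). All 10 muscle genes lay above the side patches, with a median of 0.99.

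**Figure D4:**
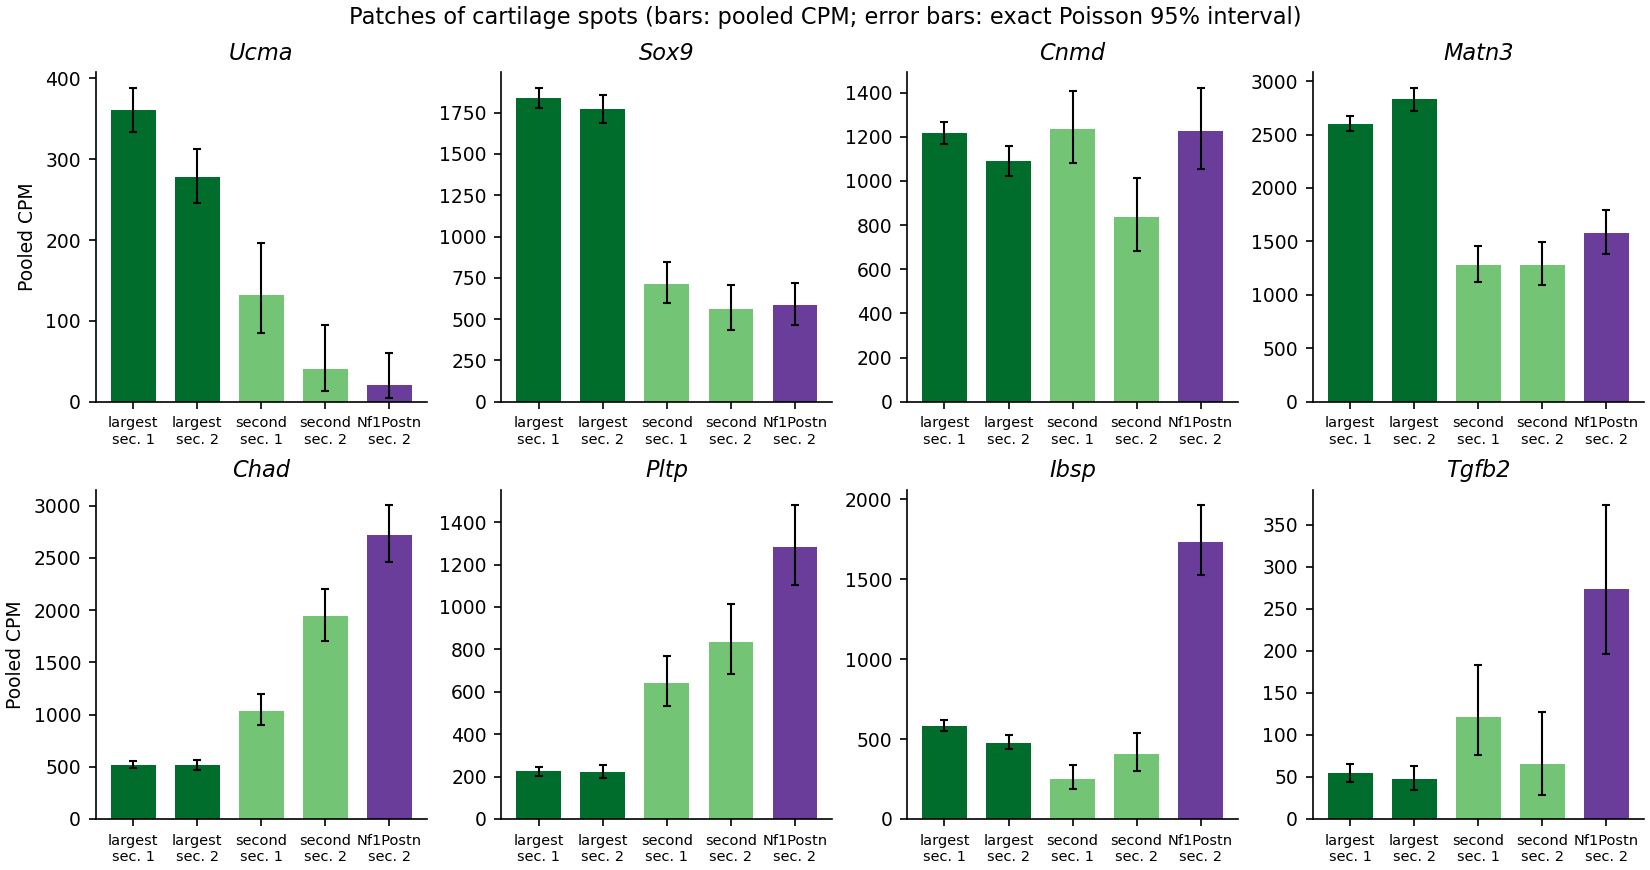
Bars show pooled CPM (from 0) of 8 genes in the main (largest) and side (second) control patches of each section and in the Nf1Postn patch, with exact Poisson 95% intervals. *Sox9*, *Matn3* and *Ucma* are lower in both side patches and in the Nf1Postn patch than in the main patches, *Cnmd* is between 836 and 1236 CPM throughout, and *Ibsp* and *Tgfb2* stand highest in the Nf1Postn patch, at 1735 and 274 CPM.

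The glycolysis and hypoxia genes are given for several comparisons that share control spots, so that their sides are not independent of each other. In control immature cartilage against *Col10a1*-rich spots 15 of 17 had ratios above 0, with a median of 0.72, and *Car9*, *Slc16a3* and *Hk2* (1.11) were called higher. Of all 4837 genes tested there, 55 (1.14%) were called higher and 1903 lay above 0, with a median of -0.11. In the side patches against the main patches all 16 tested lay below 0, with a median of -1.58, and 8 were called lower. Genes with few UMIs in the side patches passed the minimum through the main patches. *Car9* had 1 UMI in the side patches against 177, and *Bnip3* 6 against 339, so these counts are a description. Over all genes 84 of 3506 (2.4%) were called lower there, 1314 lay below 0 and the median was 0.16. In Nf1Postn cartilage against control cartilage 16 of 17 lay below 0, with a median of -1.17, and 9 were called lower, against 9.03% of all genes. Against the side patches the Nf1Postn values went both ways, 9 below and 7 above, with a median of -0.23 that lay close to the -0.24 of all genes.

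*Car9*, which keeps the pH of oxygen-poor cells, was at 54.3 and 51.2 CPM in control cartilage, 13.5 and 7.49 CPM in *Col10a1*-rich spots, 0 and 8.11 CPM in the side patches and 0 in Nf1Postn cartilage, at least 2.58-fold lower than in the control. *Slc16a3*, the lactate exporter MCT4, was at 156 and 100 CPM, then 35.2 and 26.2 CPM, 49.4 and 24.3 CPM, and 0, at least 6.6-fold lower. Spot by spot *Slc16a3* had a UMI in 130 of 208 (62.5%) and 67 of 166 (40.4%) control cartilage spots and in 0 of 26 Nf1Postn spots (0 to 13.2%), against 149 of 400 (37.2%) in the muscle-rich control spots; muscle is known to make it. Thinned to 1000 UMIs a spot, the shares were 12.02%, 10.24%, 0% and 8.5%, at median depths of 9547.25, 6608.75, 5702 and 4343 UMIs before thinning. *Bnip3* was at 106 and 95.3 CPM against 20.6 CPM from 3 UMIs (log2 -2.31, -4.60 to -0.75), and *Slc2a1*, the glucose transporter GLUT1, at 267 and 198 CPM against 54.9 CPM from 8 UMIs (-2.15, -3.36 to -1.16). *Pkm*, pyruvate kinase, was at 1460 and 1310 CPM against 624 CPM from 91 UMIs (-1.17, -1.49 to -0.87). The gene that went the other way was *Ddit4*, a stress-induced inhibitor of mTOR, at 171 CPM from 25 UMIs against 77.0 and 67.7 CPM (1.22, 0.56 to 1.81). *Hif1a*, the oxygen-regulated factor, is regulated chiefly as a protein, and its RNA was at 96.0 CPM from 14 UMIs against 223 and 190 CPM, just under the bound for a call in section 2 (-0.98).

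**Figure D5:**
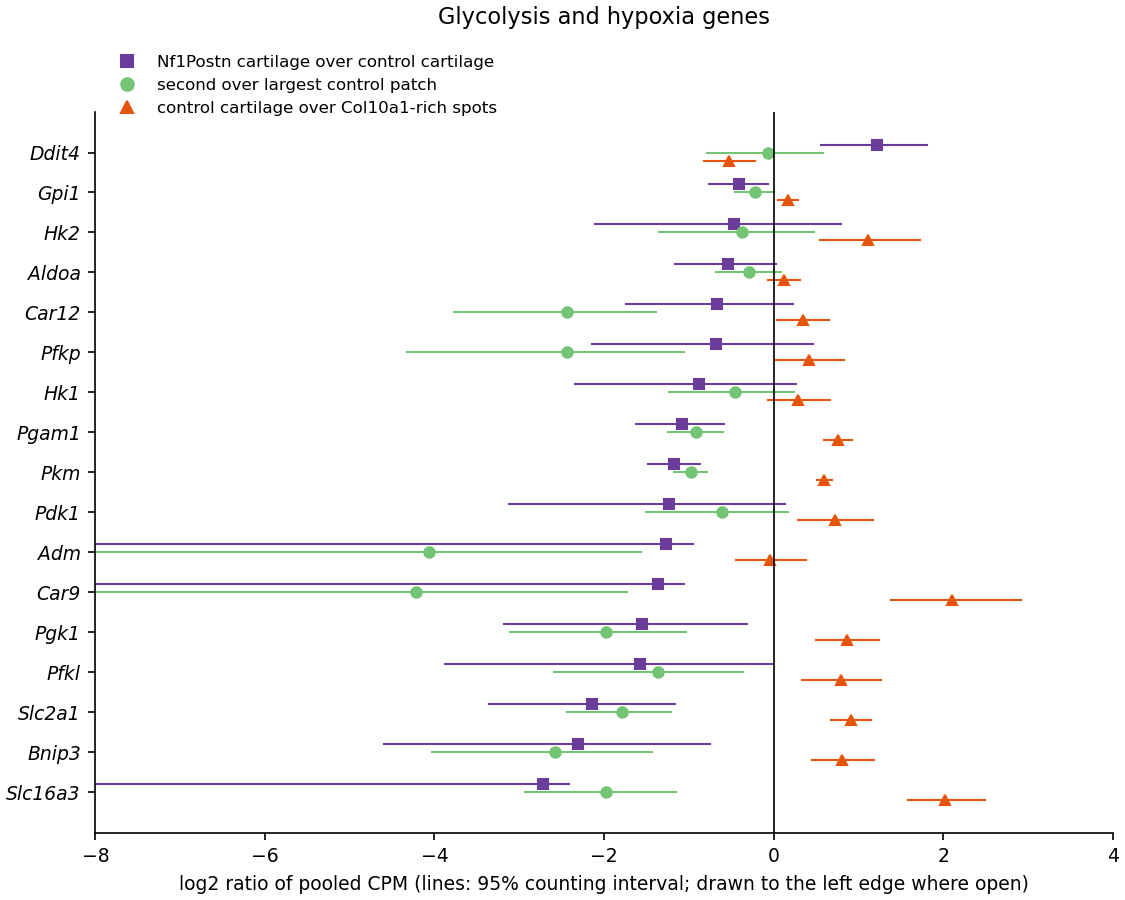
Log2 ratios of pooled CPM with 95% counting intervals for the 17 glycolysis and hypoxia genes tested, in 3 comparisons. Most squares (Nf1Postn over control cartilage) and circles (side over main control patches) lie left of 0, most triangles (control cartilage over *Col10a1*-rich spots) right of it, and *Ddit4* is the exception at 1.22; squares of *Adm*, *Car9* and *Slc16a3* are bounds from 0 UMIs.

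For 3 of the genes just described, the 250 bases before the start are shown, as RefSeq gives them in the build GRCm38.p6, written 5′ to 3′ on the strand of the gene, with matches to ACGTG, the core letters bound by hypoxia-inducible factors, on either strand in capitals.
Car9: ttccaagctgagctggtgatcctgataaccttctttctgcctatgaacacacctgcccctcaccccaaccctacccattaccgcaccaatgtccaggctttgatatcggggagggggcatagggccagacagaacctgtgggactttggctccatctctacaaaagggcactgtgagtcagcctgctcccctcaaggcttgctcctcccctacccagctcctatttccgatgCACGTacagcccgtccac
Slc16a3: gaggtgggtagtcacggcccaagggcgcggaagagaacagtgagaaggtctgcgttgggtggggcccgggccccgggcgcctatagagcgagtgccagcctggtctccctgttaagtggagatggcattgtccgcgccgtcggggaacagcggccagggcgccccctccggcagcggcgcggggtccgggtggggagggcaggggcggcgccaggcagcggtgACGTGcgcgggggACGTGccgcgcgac
Bnip3: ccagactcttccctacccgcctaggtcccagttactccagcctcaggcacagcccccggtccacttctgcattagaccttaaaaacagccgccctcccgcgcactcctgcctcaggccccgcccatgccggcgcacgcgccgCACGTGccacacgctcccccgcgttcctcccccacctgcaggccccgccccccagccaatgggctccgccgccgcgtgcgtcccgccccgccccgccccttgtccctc
The windows are chr4:43506776-43507025 on the + strand for *Car9*, chr11:120948817-120949066 on the + strand for *Slc16a3* and chr7:138909507-138909756 on the - strand for *Bnip3*. *Car9* has 1 match on the opposite strand, whose first base lies 18 bases before the start, *Slc16a3* has 2 matches, 27 and 14 bases before it, and in *Bnip3* the letters CACGTG hold a match on each strand, 108 and 107 bases before it. Of 31 listed glycolysis and hypoxia genes 29 were matched to RefSeq by symbol, and 16 of these (55.2%) held ACGTG in this window, against 4998 of 27025 genes (18.5%). For the hedgehog targets, the letters GACCACCCA of the Gli site occurred in 0 of 2 matched genes and in 0.255% of all genes, and the Sox letters ACAATG in 0 of 5 cartilage collagens and 3 of 20 proteoglycans (15%), *Epyc*, *Chadl* and *Wfdc18*, against 12.2% of all. A match of letters is a description and does not show that a factor binds there.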

How the data were processed

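Visium sections of fixed callus were profiled with mouse probe pairs. The authors aligned the reads to mm39 with Space Ranger 1.3.0, per the submitters' processing notes, and deposited UMI count tables per spot exported from Partek Flow, with the genotype of each spot. These are estimated counts, because 10 of the deposited entries join several Ensembl IDs and hold means; the entry without a name (11.6 and 6.8 UMIs in sections 1 and 2) was left out, and 5 spots without a genotype entered no group. UMIs were summed over spots and scaled to CPM. Ratios have exact conditional binomial intervals, levels Poisson and shares Clopper-Pearson intervals, all at 95%. A call needed 50 UMIs per section and 2-fold in each section. Nf1Postn cartilage spots that passed the minimum depth were found only in section 2, and these were compared with control cartilage of each section. The genes named are the 10 largest called ratios in each direction and fixed lists; some genes that this rule takes in are not reported here. A group at 0 was bounded at 3 UMIs. The members and gene lists were chosen with earlier results of these data known. Python 3.11.15, numpy 2.4.6, scipy 1.17.1, pandas 2.3.3 and edgeR 4.0.16 (TMM factors only) were used, and the ratio script was tested on simulated data. Totals of all spots were 13562253.5 and 12122419 UMIs for the control and 3462224.5 and 5984157 UMIs for the Nf1Postn callus in sections 1 and 2.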

Additional observations from a re-analysis of the deposited data

Results flagged for a closer look

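Spots rich in *Col2a1* were also found among spots that the depth limit left out. In the Nf1Postn callus of section 1, which held 0 cartilage spots, 33 spots under 1000 UMIs reached the lowest summed *Col2a1* and *Acan* of the cartilage spots, and 31 of them had a neighbor of the same kind. Their median depth was 525 UMIs (58 to 955.5), and they held 16647 UMIs together, of which 1796 were *Col2a1*. Of genes outside the rule, *Comp* had 254 UMIs, *Chad* 24, *Matn3* 23, *Cnmd* 8, *Sox9* 8 and *Ucma* 0. RNA of other tissues was present too, with 341 UMIs of *Col1a1*, 122 of *Ckm* and 68 of *Hba-a2*. With the limit set at 100 UMIs, chosen after seeing the data, the Nf1Postn share was 1.77% and the control share 10.0%.

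*Insc* and *Slc16a3* lay on opposite sides in the calluses when cartilage was set against the remaining spots of the same callus. *Insc* had a log2 ratio of 1.74 (0.84 to 2.53) in the Nf1Postn callus of section 2, from 14 UMIs in cartilage and 165 elsewhere, against -1.93 and -1.32 in the control sections. *Slc16a3* had -2.47 there, a bound from 0 UMIs in cartilage and 654 elsewhere, against 2.06 and 1.31. The 12 muscle genes summed to 124454 CPM in these remaining Nf1Postn spots and to 18215 and 26116 CPM in the remaining control spots of sections 1 and 2, and the part of muscle in the ratios was not tested. The differences between the calluses were not tested.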

How the results depend on the processing

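Each genotype is 1 mouse, so agreement between sections does not show that a value would recur in other mice, and the 26 Nf1Postn spots limit any gene under about 50 CPM to a few UMIs. No paired analysis was possible because, at the minimum of 1000 UMIs a spot, Nf1Postn cartilage spots were found in section 2 alone and each genotype is 1 mouse. Of 147 alternative values of the 14 main results, 93 stayed the same, 54 moved and 0 reversed. For a count, same meant within 1.5 times. For other values it mostly meant within the standard deviation of the 2 section values, which is a wide bound for the Nf1Postn share. Shares and counts could not be labeled reversed. Counts of higher and lower calls were taken separately, so a change in which was larger is not counted as reversed. Such changes occurred for Nf1Postn over control cartilage with no minimum of UMIs, and for control immature over *Col10a1*-rich cartilage with TMM scaling. The gene ratios recomputed were mostly the largest called ratios in each direction, picked for their size in these same data. The alternative settings reuse many of the same spots. A kept direction was therefore likely from the start, and the count of kept directions is a description that does not test the ratios. Of 628 alternative values of 68 gene ratios, 625 kept their direction. The others arose when every spot was thinned to 1000 UMIs, with *Mamdc2* and *Ifitm5* at -0.060 each for Nf1Postn over control cartilage and *Gli1* at -0.35 for near over far. The cause was not tested.

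With 200 and 800 spots in place of 400, the control share was 5.46% and 22.5% and the share of cartilage neighbors 63.4% and 76.2%. Leaving out a section gave control shares of 9.79 to 12.6%, Nf1Postn shares of 0 to 1.80% and control neighbor shares of 68.5 to 74.3%. *Ucma* over the remaining control spots (log2 4.14) was 3.84 with 200 spots, 3.77 thinned and 3.90 to 4.21 without a section. *Cnmd* (3.80) was 3.36 with 200 spots, 3.87 with 800, 3.96 with the top 10% removed for *Col10a1*, 3.79 at a minimum of 2000 UMIs, 3.78 when ranked by *Col2a1* alone, 4.0 with the rule genes out of the totals, 3.44 thinned, 6.18 as a mean of log2 values over spots, and 3.76 without either section. *Ihh* near over far (1.75) was 2.55 with 200 spots, 2.57 thinned, 1.06 as a mean of log2 values and 1.51 to 2.11 by section, and *Ucma* -1.14 to -0.08.

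Counts of called genes moved more. Against *Col10a1*-rich spots, 55 higher became 118 with no minimum UMIs, 88 with TMM, 13 thinned and 197 to 203 with 1 section alone, and 58 lower became 116 with 200 spots, 28 with 800, 528 with no minimum, 38 with TMM, 10 thinned, 96 in the main patches alone and 140 to 406 with 1 section. Against the remaining control spots, 178 higher became 338 with no minimum, 298 with TMM, 76 thinned and 221 to 271 with 1 section, and 1231 lower became 2150 with 200 spots, 378 with 800, 532 with TMM, 749 with the rule genes out of the totals, 370 thinned and 2023 to 2250 with 1 section. For Nf1Postn over control cartilage, 77 higher became 38 with 200 spots, 1560 with no minimum, 9 thinned, 8 against the side patches, where fewer genes could be tested, and 115 without section 1, and 405 lower became 179 with 200 spots, 659 with 800, 848 with no minimum, 55 thinned, 18 against the side patches, 245 where the interval had to exclude 0 and 493 without section 1. Without section 2 that comparison had no value, since no Nf1Postn cartilage spots that passed the minimum depth were left. The 100 UMI minimum, the single patches and the interval rule were chosen after seeing the data. With 1 section alone a call needs 2-fold only once.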

Other observations

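*Tnn*, tenascin-W, a matrix protein of the perichondrium and of bone-forming tissue, was higher in control cartilage than in *Col10a1*-rich spots or the remaining control spots. It was at 928 and 733 CPM in cartilage of sections 1 and 2, 359 and 356 CPM in *Col10a1*-rich spots (log2 1.26) and 342 and 320 CPM in the remaining control spots (1.38). In Nf1Postn cartilage *Tnn* was at 144 CPM from 21 UMIs (-2.58), and it was called in all 3 comparisons. *Tnn* was also called lower in the control side patches than in the main patches (-2.04, from 72 and 2804 UMIs), and Nf1Postn cartilage differed from the side patches by -0.71 (-1.49 to 0.01). Against the remaining control spots its list, of early progenitors and perichondrium, had 21 of 24 genes below 0 and a median of -0.70, against 9035 of 11204 genes and -0.41 in all. *Tnn* and *Fn1* (1.22) were the 2 called higher and *Pdgfrb* the 1 called lower (-1.27), and *Postn*, whose promoter drives the Cre, was called lower in Nf1Postn than in control cartilage (-1.13).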
